A study of Rattus norvegicus with 6 samples.

Results

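Islets hold several endocrine cell types besides the beta cell, and a beta cell preparation can be read for them through the hormones and identity genes that those cells express. The 8 genes followed here were the hormone genes Gcg, Sst, Ppy, Pyy and Ghrl, the carrier protein gene Ttr and the homeobox genes Hhex and Irx2. They were chosen for their known expression in non-beta islet cells and not for their values, though with earlier results of these data known. Each was taken from the probe sets whose platform annotation carried that symbol and no other, which gave 8 probe sets, 1 for each gene, of 20826 singly annotated probe sets for 14217 genes. All 8 genes kept their symbol in the current rat gene table, to which they were matched by gene number.

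Expression arrays were run on beta cells purified by fluorescence-activated cell sorting from male Wistar rats aged 10 weeks. There were 3 isolates from rats fasted for 24 h and 3 isolates from rats fed ad libitum, each isolate was a pool of 5 rats, and each was hybridised to 1 array. The labels put the sorted cells at 92 ± 3% insulin-positive, stated for the preparation as a whole and not for single isolates. The cells were snap frozen and RNA of all isolates was extracted in batch. The deposited values are linear intensities per probe set, and one probe set's intensity is set only against its own intensity on other arrays, because probe sets differ in how strongly they hybridise.

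Glucagon, encoded by Gcg in alpha cells, raises the release of glucose by the liver, and somatostatin, encoded by Sst in delta cells, acts on neighbouring cells to hold back the secretion of both insulin and glucagon. Pancreatic polypeptide (Ppy) is the hormone of PP cells, peptide YY (Pyy) belongs to the same peptide family and is also made in the gut, and ghrelin (Ghrl) comes mainly from the stomach and, in the islet, from rare epsilon cells. Hhex is needed for delta cell identity in the mouse, Irx2 is an Iroquois homeobox factor of alpha cells, and transthyretin (Ttr) carries thyroid hormone and, bound to retinol-binding protein, retinol.

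The sequences around the annotated starts of the 4 brightest hormone genes are printed because Gcg and Ppy had the same order of arrays and shared their highest and lowest array with Pyy, while Sst did not. They are RefSeq sequences of rat assembly GRCr8, from 250 bases before the annotated start to the first 30 bases from the start on, 5′ to 3′ on the gene's strand. Capitals mark any of 3 motifs, searched on both strands: the TATA box core TATAAA, the cAMP response element TGACGTCA and the homeodomain core TAATTA.
Gcg, chr3:67531504-67531783, minus strand: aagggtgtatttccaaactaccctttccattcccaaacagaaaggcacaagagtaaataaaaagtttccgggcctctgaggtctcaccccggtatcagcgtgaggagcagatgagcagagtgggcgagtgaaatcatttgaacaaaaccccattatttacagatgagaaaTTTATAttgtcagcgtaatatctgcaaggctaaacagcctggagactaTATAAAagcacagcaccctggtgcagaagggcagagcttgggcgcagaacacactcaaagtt
Ppy, chr10:87556207-87556486, minus strand: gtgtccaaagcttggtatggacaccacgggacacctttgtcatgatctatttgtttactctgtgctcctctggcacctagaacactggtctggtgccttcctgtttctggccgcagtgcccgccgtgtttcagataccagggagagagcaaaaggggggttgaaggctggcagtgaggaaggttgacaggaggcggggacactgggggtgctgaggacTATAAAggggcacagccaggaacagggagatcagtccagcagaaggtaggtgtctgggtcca
Pyy, chr10:87562441-87562720, minus strand: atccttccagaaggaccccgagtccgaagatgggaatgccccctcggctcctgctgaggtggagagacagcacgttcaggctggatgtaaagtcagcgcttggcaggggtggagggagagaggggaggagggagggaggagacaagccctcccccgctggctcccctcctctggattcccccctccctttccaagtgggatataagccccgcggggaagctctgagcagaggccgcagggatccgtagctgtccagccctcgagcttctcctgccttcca
Sst, chr11:90461296-90461575, plus strand: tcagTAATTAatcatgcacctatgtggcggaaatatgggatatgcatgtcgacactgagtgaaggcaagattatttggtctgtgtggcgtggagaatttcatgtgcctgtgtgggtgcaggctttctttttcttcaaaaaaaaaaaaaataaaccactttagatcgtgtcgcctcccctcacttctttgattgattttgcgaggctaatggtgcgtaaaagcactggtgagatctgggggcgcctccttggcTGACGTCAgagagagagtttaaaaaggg

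TATAAA was present in 13.7% of 33469 windows of this length, TAATTA in 5.17% and TGACGTCA in 1.78%. The Gcg window held TATAAA starting 32 bases before the start and its reverse complement TTTATA starting 80 bases before it, and the Ppy window held TATAAA 32 bases before the start. The Sst window held TAATTA 246 bases before the start and TGACGTCA, known in this gene as the element bound by CREB, at base 3 from the annotated start on. Annotated starts were not checked against mapped transcription starts. The position of TGACGTCA in Sst therefore does not show that it lies within the transcript, and the windows need not line up between genes. None of the 3 motifs was found as an exact match in the windows of Pyy, Ghrl, Ttr, Hhex and Irx2. Near variants of the motifs and sites outside the windows were not searched, so that an absent match does not show an absent element. Ppy and Pyy lie next to each other on the same strand of chromosome 10, with 0 other genes starting between them in the gene table.

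Read array by array, the non-beta hormones were not spread evenly over the isolates, since 1 fed isolate, replicate 2, carried the highest value of 5 of the 8 genes: Gcg, Ppy, Pyy, Ghrl and Irx2. That array held the highest value of 19.8% of all 31042 probe sets. For Pyy, Ghrl and Irx2 it stood at least 1.5-fold above the next array, as it did for 2.88% of all probe sets. The other 3 genes, Sst, Ttr and Hhex, were highest on fasted replicate 1. Fed replicate 2 was the highest array for these same 5 genes also when the arrays were quantile-normalized or set to a common 75th percentile. Some margins narrowed. After 75th percentile scaling it stood above the next array by 1.02-fold for Ppy, 1.12-fold for Gcg and 1.21-fold for Pyy. As deposited these margins were 1.21-fold, 1.32-fold and 1.63-fold. For Pyy the margin was 1.46-fold after quantile normalization, so that it reached 1.5-fold under neither scaling. Ghrl and Irx2 stayed above 1.5-fold under both. These are bulk samples, in which more or fewer cells of a type and more or less RNA per cell cannot be told apart.

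**Figure D1:**
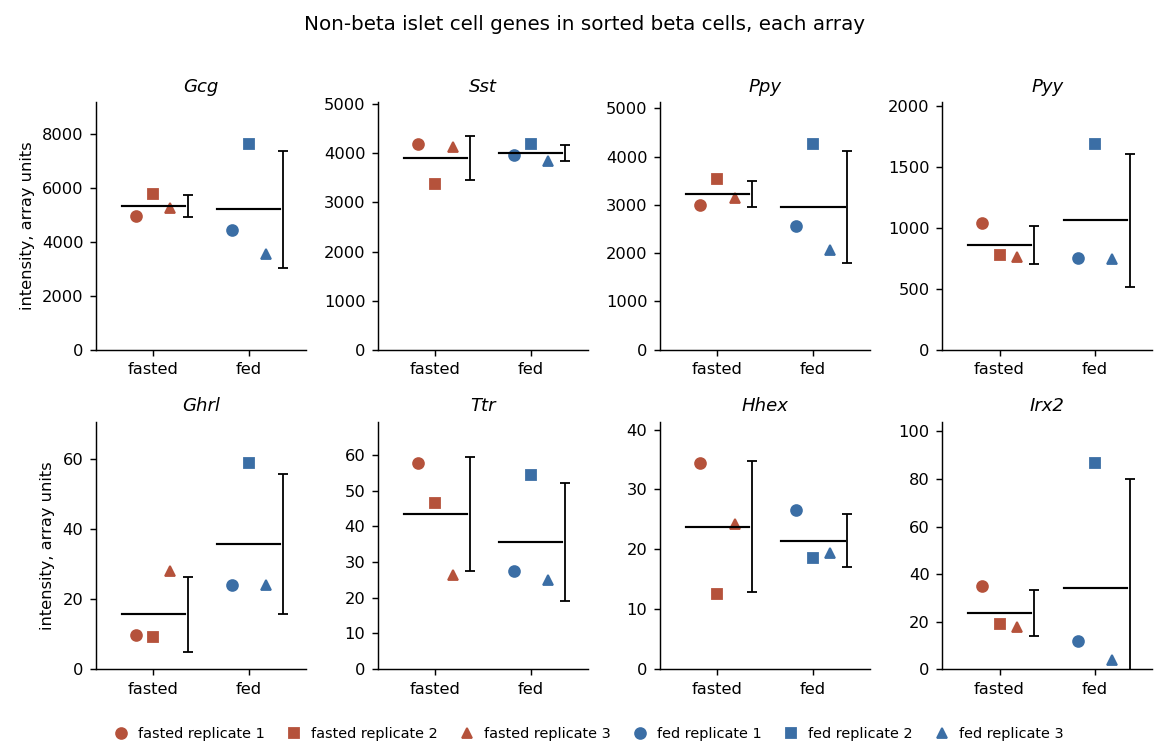
Deposited intensity (linear axis from 0) of the 8 genes on each array, with the 3 fasted isolates left and the 3 fed isolates right in each panel; the line is the mean and the bar beside it the SD of the 3 arrays, cut off at 0 for fed Irx2. Fed replicate 2 (blue square) is the highest point for Gcg, Ppy, Pyy, Ghrl and Irx2, and the Sst points lie between 3386 and 4200.

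Gcg had intensities of 4958, 5769 and 5261 in the fasted isolates, against 4426, 7629 and 3532 in the fed isolates. The value of 7629 was the highest intensity of any non-control probe set on any of the 6 arrays. That places it at the top of the intensity range and does not rank RNA amounts between genes, as probe sets hybridise differently. In the paper's quantitative PCR of sorted rat beta cells, Gcg mRNA was far less abundant than Ins2 mRNA. The fasted arrays lay within 1.16-fold of each other and inside the range of the fed arrays, which spanned 2.16-fold. The log2 change, fasted over fed, was 0.11 with a standard error of 0.28 (95% interval -0.56 to 0.78, adjusted p = 0.852 from limma).

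Ppy repeated that order of arrays. Its intensities were 2997, 3536 and 3143 in the fasted isolates and 2567, 4270 and 2057 in the fed isolates. Again the fed arrays enclosed the fasted ones, with fed replicate 2 at 1.85 times the mean of the other fed arrays, against 1.92 times for Gcg. The mean was 3225 ± 279 in fasted and 2965 ± 1159 in fed isolates (SD, n = 3 each), a log2 change of 0.19 with a standard error of 0.26 (adjusted p = 0.724 from limma).

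Pyy, the genomic neighbour of Ppy, measured 1040, 773 and 763 in the fasted isolates, against 752, 1690 and 742 in the fed isolates. Fed replicate 2 stood at 2.26 times the mean of the other fed arrays, while those 2 arrays were close to fasted replicates 2 and 3. The log2 change was -0.21 with a standard error of 0.34 (adjusted p = 0.769 from limma), and it turned to 0.19 without fed replicate 2.

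Sst behaved differently from the other bright hormone genes. It measured 4200, 3386 and 4122 in the fasted isolates and 3973, 4182 and 3854 in the fed isolates, so that its highest array was only 1.24-fold above its lowest. Fed replicate 2 lay at 1.07 times the mean of the other fed arrays, and the lowest value was that of fasted replicate 2. Its log2 change of -0.04 had a 95% interval of -0.29 to 0.21 (adjusted p = 0.848 from limma), the narrowest of the 8 genes. This interval is of intensities: the probe set was brighter than 99.9% of all, where intensity may no longer follow the amount of RNA linearly, and Gcg and Ppy were at least as bright as 99.8% of all probe sets, so that differences in RNA may be understated.

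Ghrl was dim, at 9.79, 9.27 and 28.1 in the fasted isolates, against 24.2, 58.9 and 24.1 in the fed isolates. Fasted replicates 1 and 2 were below every fed array, and fasted replicate 3 lay between the fed arrays. The log2 change was -1.25 with a standard error of 0.59 (unadjusted p = 0.0781, adjusted p = 0.37 from limma), from means of 15.7 ± 10.7 in fasted and 35.7 ± 20.1 in fed isolates. Without fasted replicate 3 the log2 change was -1.77 (unadjusted p = 0.0172, adjusted p = 0.119 from limma), and without fed replicate 2 it was -0.82 (unadjusted p = 0.245).

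Irx2 differed most between fed isolates, at 35.0, 18.9 and 17.6 in the fasted isolates and 12.0, 86.7 and 3.75 in the fed isolates. The highest fed array was 23.1-fold above the lowest, which was close to the floor of 3.27 used for dim values, while the fasted arrays lay within 1.99-fold. The log2 change of 0.53 had a standard error of 1.12 (adjusted p = 0.827 from limma). With fed replicate 2 left out it was 1.76, and with fed replicate 3 left out it was -0.51, so that single fed arrays decided its direction.

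Ttr and Hhex, the remaining dim genes, followed neither pattern closely. Ttr measured 57.7, 46.6 and 26.3 in the fasted isolates, against 27.4, 54.5 and 24.9 in the fed isolates. Hhex measured 34.4, 12.6 and 24.3 in the fasted isolates and 26.5, 18.5 and 19.4 in the fed isolates. For Ttr the high arrays were fasted replicates 1 and 2 and fed replicate 2, and for Hhex fed replicate 2 was the lowest fed array. The log2 change was 0.31 for Ttr (standard error 0.43, adjusted p = 0.722 from limma) and 0.05 for Hhex (standard error 0.44, adjusted p = 0.971).

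In the comparison of fasted with fed isolates none of the 8 genes passed the thresholds of the study, a change of at least 1.5-fold with an unadjusted p under 0.05. Of all probe sets 8.43% passed as lower and 2.37% as higher in fasted isolates, but 0 had an adjusted p under 0.05 and 4622 an unadjusted p under 0.05 in limma. The arrays of fasted and fed isolates overlapped for all 8 genes, so that 0 of 8 were separated, against 22.8% of all probe sets. The median log2 change of the 8 genes was 0.08, beside -0.19 over all genes, and 5 of the 8 were positive. An exact two-sided permutation test of each gene gave p between 0.3 for Ghrl and 1 for Pyy and Hhex, where 3 against 3 arrays cannot go below 0.1.

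Leaving out fed replicate 2, a choice made after its values were seen, lowered the standard error for Gcg, Ppy and Pyy and not for Sst, and taking away the highest fed array can only move such a difference upward. The log2 change of Gcg was then 0.43 with a standard error of 0.13 (unadjusted p = 0.0227, adjusted p = 0.379 from limma), and that of Ppy 0.49 with a standard error of 0.13 (unadjusted p = 0.0153, adjusted p = 0.355). Such a positive change with an unadjusted p under 0.05 was found for 2.53% of all probe sets. Both stayed below 1.5-fold, and Irx2, at 3.38-fold, did not reach the p threshold (0.0503 unadjusted, limma). None of the 8 genes passed as higher, against 1.87% of all probe sets. The arrays of the groups no longer overlapped for 4 genes, Gcg, Ppy, Pyy and Irx2, against 33.1% of all probe sets, while Sst stayed at a log2 change of -0.01. When the arrays were in addition scaled to the same 75th percentile, the log2 change was 0.67 for Gcg, 0.73 for Ppy and 2.00 for Irx2, and these 3 genes passed the thresholds as higher, against 3.65% of all probe sets.

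**Figure D2:**
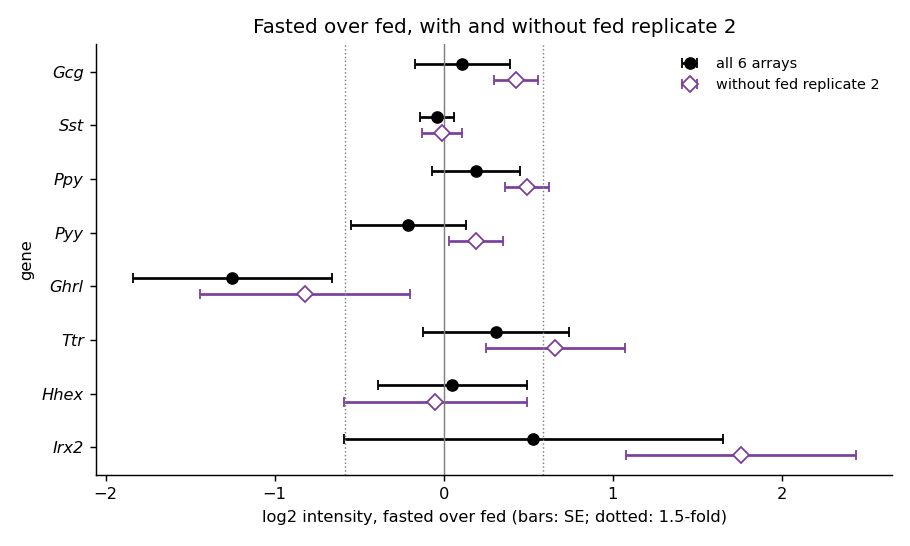
Log2 change of the 8 genes, fasted over fed, fitted on all 6 arrays (filled circles) and without fed replicate 2 (open diamonds); bars are standard errors and dotted lines mark 1.5-fold. Without that array Gcg stands at 0.43, Ppy at 0.49 and Irx2 at 1.76, while Sst stays near 0.

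Other markers of non-beta islet cells were then set beside the 8 genes. Of 9 measured alpha cell markers 6 were highest on fed replicate 2, of 5 PP cell markers 4 and of 7 delta cell markers 2, counting the 8 genes themselves. The share over all probe sets was 19.8%. Outside the 8 genes, those highest there were Irx1, Gc, Pou3f4 and Smarca1 (alpha), Meis2 and Etv1 (PP), and Rbp4 and Ghsr (delta). Slc7a2, Slc38a5, Id4, Frzb, Bche and Spock3 were highest on other arrays. The PP cell marker Etv1, a transcription factor, measured 35.7, 52.5 and 68.7 in the fasted isolates, against 70.3, 366 and 35.4 in the fed isolates. All 5 of its probe sets were highest on fed replicate 2. Rbp4, the plasma retinol carrier that is also expressed by delta cells, measured 27.4, 43.3 and 41.4 in the fasted isolates and 37.8, 234 and 27.4 in the fed isolates.

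Not every gene on those lists followed. Slc38a5, an amino acid transporter on the alpha cell list, measured 1087, 1954 and 1829 in the fasted isolates. It measured 2360, 2559 and 2598 in the fed isolates, and fed replicate 2 was not its highest array. It passed the thresholds as lower (log2 change -0.67, standard error 0.22, unadjusted p = 0.0234, adjusted p = 0.286 from limma), with fasted replicate 1 far below the others, and at -0.41 without that array it no longer did. Its call was also lost without any single fed array, with an unadjusted p between 0.0507 and 0.0706 from limma. It was lost as well after quantile normalization (-0.57) and 75th percentile scaling (-0.43). Gc, the vitamin D-binding protein expressed by alpha cells, was highest on fed replicate 2 by only 1.12-fold. Its dimmer probe set was highest on fed replicate 1, at 127, and measured 90.6 on fed replicate 2. Irx1, taken up after its values were seen, measured 91.8 on fed replicate 2 against at most 22.4 on the other arrays with 1 probe set, whereas its other probe set gave 12.5 there and up to 16.4 elsewhere.

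Leaving the 8 genes out, the summed intensity of the PP cell markers was 84.6 to 171 in fasted and 136 to 512 in fed isolates, that of the delta cell markers 66.5 to 138 in fasted and 118 to 333 in fed isolates, and that of the alpha cell markers 3431 to 4747 in fasted and 5359 to 6069 in fed isolates. A few bright probe sets made up most of each sum, with Etv1 at 366 of the 512 for PP cells and Rbp4 at 234 of the 333 for delta cells on fed replicate 2, and Gc and Slc38a5 most of the alpha cell sum, so that the sums add little to the values of those genes. Of the alpha and delta cell lists 1 gene each passed the thresholds, as lower in fasted isolates, beside 8.43% of all probe sets. They were Slc38a5 and the weakly measured Bche, with a log2 change of -1.37 (unadjusted p = 0.0348, adjusted p = 0.308 from limma). The call of Bche was lost without any array but fasted replicate 3. None of the PP cell list passed.

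**Figure D3:**
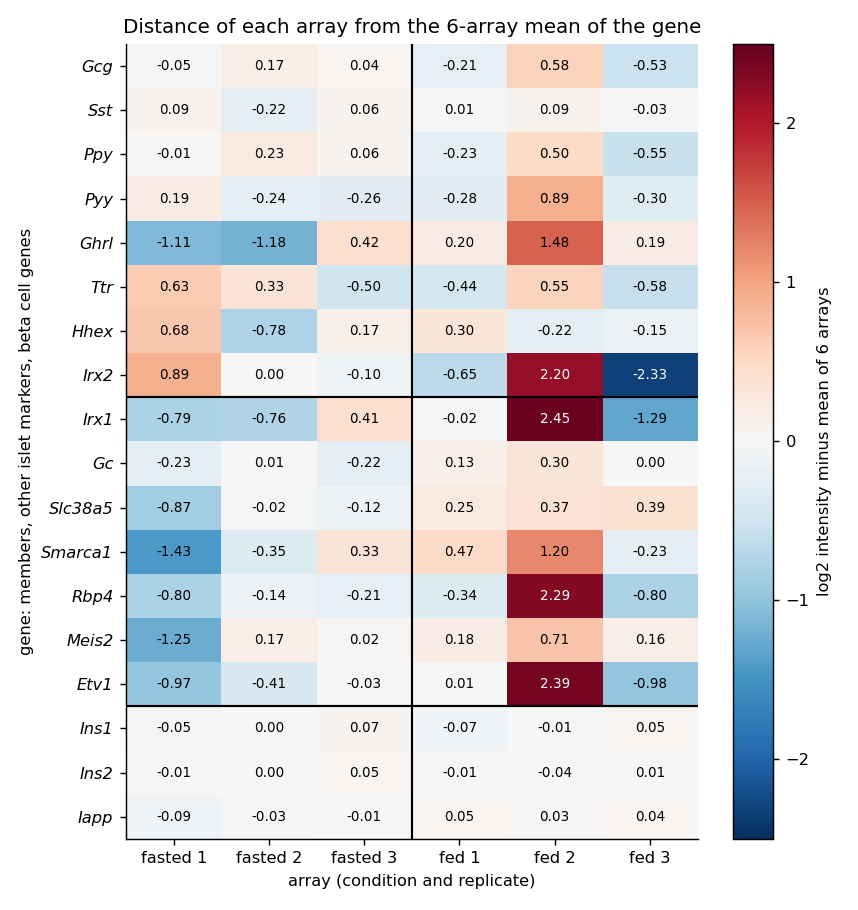
Log2 distance of each array (columns, fasted left, fed right) from the 6-array mean of the gene, for the 8 genes, 7 other islet markers and 3 beta cell genes (rows). The 7 markers were picked by hand, each on its brightest probe set. For Irx1 and Gc the other probe set was highest on an array other than fed replicate 2. Of the islet markers not shown, Slc7a2, Id4, Frzb, Bche and Spock3 were highest on other arrays, and Pou3f4 and Ghsr on fed replicate 2. Fed replicate 2 lies 2.20 above the mean for Irx2, 2.29 for Rbp4 and 2.39 for Etv1, while Ins1, Ins2 and Iapp stay within 0.09 of their means on all arrays.

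The main hormone genes of the beta cell differed little between arrays. Ins1, an insulin gene, measured 5783, 6012 and 6299 in the fasted isolates and 5719, 5958 and 6200 in the fed isolates, Ins2 lay between 5686 and 6053 and Iapp, which encodes the co-secreted islet amyloid polypeptide, between 6450 and 7078. These values sit close to the highest intensity on the arrays. None of the 11 measured beta cell markers was highest on fed replicate 2. Of these markers 2 passed the thresholds as lower in fasted isolates, beside 8.43% of all probe sets. They were Ptprn, with a log2 change of -1.34, and Prlr, with -0.63. Prlr did not pass without fed replicate 1 (-0.58) or fasted replicate 1 (-0.47), after quantile normalization (-0.49) or 75th percentile scaling (-0.38), or when its probe sets were averaged (-0.61, unadjusted p = 0.053 from limma). As background for these readings, the 19 measured acinar cell markers were bright on all arrays. Their summed intensities were 75184 to 90348 in fasted and 85119 to 94030 in fed isolates. As said for Sst, intensity at such brightness may no longer follow the amount of RNA linearly, so that differences may be understated. Of these 19 markers 1 was highest on fed replicate 2. Of 10 stromal markers 5 were highest there, with sums of 319 to 373 in fasted and 255 to 587 in fed isolates, and of 12 leukocyte markers 2, with sums of 135 to 161 in fasted and 119 to 246 in fed isolates. The count was 4 of 9 for duct cell markers, 2 of 8 for endothelial, 2 of 3 for red cell and 0 of 3 for Schwann cell markers, beside the 19.8% of all probe sets. The part of those cells in the values of the 8 genes was not tested. Of the 10 stromal markers 1 passed the thresholds, the weakly measured Postn, as lower in fasted isolates, beside 8.43% of all probe sets. Its log2 change was -0.97 (unadjusted p = 0.047, adjusted p = 0.332 from limma), and its call was lost without any array but fasted replicate 3.

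The arrays themselves differed in other ways. Median intensities were 17.1 to 21 on fasted and 20.2 to 21.8 on fed arrays, and the ratio of 3′ to 5′ actin probe sets was 1.82 to 2.4 on fasted and 1.76 to 2.05 on fed arrays, highest on fasted replicate 1 and lowest on fed replicate 2. Among 15521 brighter probe sets, fasted replicate 1 stood at least 1.5-fold above every other array for 675, fed replicate 2 for 133 and each of the other arrays for 11 to 58. Their part in the results was not tested.

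Receptors for islet and gut peptides were set beside the 8 genes. Of the 14 receptors, 3 were lower and 0 higher in fasted isolates, against 8.43% of all probe sets lower and 2.37% higher, and the list median was -0.44, beside -0.19 over all genes. Gcgr, the glucagon receptor, measured 75.7, 93.1 and 111 in the fasted isolates, against 163, 167 and 153 in the fed isolates. All fasted arrays were below all fed arrays, and fed replicate 2 did not stand apart. The log2 change of Gcgr was -0.80 with a standard error of 0.16 (unadjusted p = 0.0022, adjusted p = 0.184 from limma), between -0.94 and -0.66 when each array was left out in turn. After scaling to the 75th percentile it was -0.56, just short of 1.5-fold.

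Gipr, the receptor of the gut incretin GIP, measured 217, 245 and 285 in the fasted isolates and 520, 494 and 508 in the fed isolates. The groups were again fully separated, with the fed arrays close together. The log2 change was -1.04 with a standard error of 0.11 (unadjusted p = 8.45e-05, adjusted p = 0.155 from limma), and between -1.14 and -0.94 with each array left out. Sstr4, a weakly measured somatostatin receptor, had 8.65, 3.61 and 6.97 in the fasted isolates, against 21.4, 10.8 and 11.6 in the fed isolates. Its log2 change of -1.21 (unadjusted p = 0.0425, adjusted p = 0.322 from limma) kept its call only without fasted replicate 1 among the 6 arrays left out in turn. Glp1r, the receptor of glucagon-like peptide 1, which Gcg also encodes, was taken up after its values were seen and had a log2 change of 0.03 with a 95% interval of -0.46 to 0.53. Sstr2, taken up after its values were seen, measured 15.9, 21.8 and 20.9 in the fasted isolates and 29, 104 and 24.9 in the fed isolates. Its high value was on fed replicate 2, and it did not pass (unadjusted p = 0.0961, adjusted p = 0.392 from limma). The other Sstr2 probe set, slightly dimmer, measured 19.9, 27.6 and 45.8 in the fasted isolates and 24.8, 57.2 and 31.8 in the fed isolates. There fed replicate 2 was only 1.25-fold above the next array, and the groups overlapped.

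**Figure D4:**
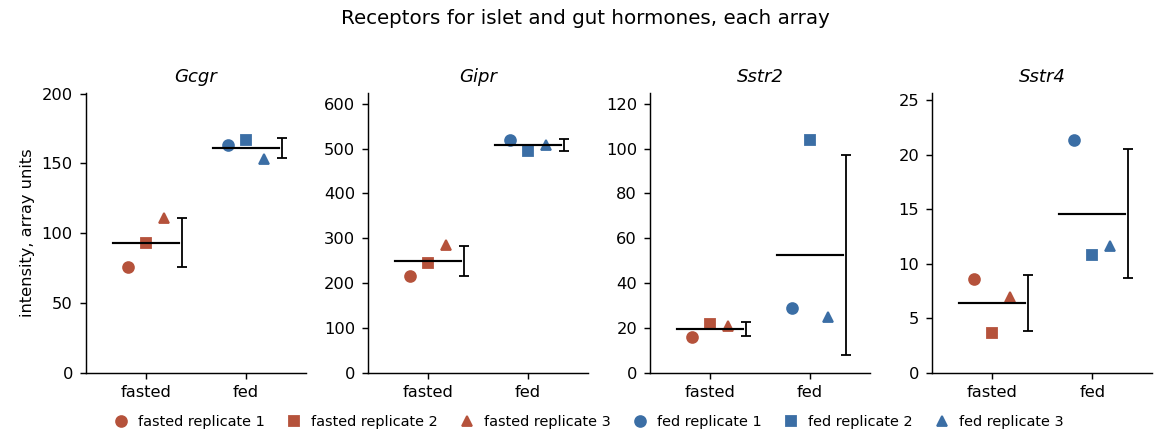
Deposited intensity (linear axis from 0) of 4 hormone receptor genes on each array, fasted left and fed right; lines are means and bars SDs of 3 arrays. Gcgr and Gipr are lower on every fasted array than on any fed array, whereas the fed mean of Sstr2 rests on the 104 of fed replicate 2. Sstr2 is shown on its brighter probe set, and the other one gave 57.2 on that array.

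For each of the 8 genes, the genes with the most similar pattern over the 6 arrays were sought among 9191 other genes above the median probe set, by the root mean square difference of their log2 distances to the mean. Nearest to Gcg was Mmp14, a membrane-bound matrix metalloproteinase, at a difference of 0.041, followed by Serpina1 at 0.10 and Jak1 at 0.11. Mmp14 at 0.071 and Jak1 at 0.10 were also among the 3 nearest to Ppy, with Itga7 at 0.079 between them. Mmp14 measured 23.9, 28.4 and 26.5 in the fasted isolates, against 20.9, 39.2 and 17.8 in the fed isolates, the same order of arrays as Gcg and Ppy. The median gene differed from Gcg by 0.47 and only 1 gene lay within 0.1.

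Sst had many close neighbours, as a nearly constant gene does: 152 genes lay within 0.1, the nearest being Bex3 at 0.031, Ermard at 0.035 and Ndufa6 at 0.044. The nearest genes were Rbms1, Epha2 and Eml4 for Pyy (0.16 to 0.17), C1ql1, Gsn and Cox11 for Ttr (0.17 to 0.20) and Wdfy1, Pals2 and Cks2 for Hhex (0.13 to 0.15). For Ghrl they were Plk2, Polr3f and Clic2 (0.29 to 0.31) and for Irx2 Gabra6, Clpb and Ccl2 (0.50 to 0.65), so that no gene followed these 2 dim genes closely. Patterns compared over 6 arrays are a description only.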

How the data were processed

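The deposited intensities are linear model-based expression values that the authors made with dChip after normalization to the array of median intensity and background correction from mismatch probes. Its version is not given in the sources used here, and raw scans, detection calls and scan dates were not used. From these, 57 control probe sets were left out, values under the 10th percentile (3.27) were raised to it, which understates changes of dim genes, and limma 3.58.1 (lmFit, eBayes with intensity trend, two-sided; R 4.3.3) was applied to the log2 values, fasted over fed, 3 arrays each, no block. Benjamini-Hochberg adjustment ran over 31042 probe sets. A call needed 1.5-fold and an unadjusted p under 0.05, the thresholds of the study. The study applied them with dChip and reported a smaller share of transcripts changed, nearly all of them lower. The counts given here are therefore not those of the study. The number of arrays limits the precision, and p-values measure the spread between isolates, which the labels call independent.

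The 8 genes and all lists were chosen with earlier results of these data known. The rule for named genes took the 8 genes, Ins1, Ins2 and Iapp, up to 4 genes of each other list by moderated t and every list gene past the thresholds, and the 3 genes nearest each member. Not all genes taken by the rule are named in the text, and some genes outside it are. A gene with several probe sets was read from the brightest. On simulated data for this comparison (31042 probe sets) 98% of 3-fold and 57% of 1.5-fold changes had an unadjusted p under 0.05. For an adjusted p the shares were 35% and 1%. The simulation changed 100 probe sets at each fold, all above the median, with independent normal noise and no shift of whole arrays. Recovery after adjustment depends on the share changed, so these shares are not the power of the real comparison. Alternatives covered array scaling, the floor, a filter, variance models, array weights, linear means, a replicate block, each array left out and all probe sets of a gene. Python 3.11.15 with matplotlib 3.10.9 drew the figures.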

Additional observations from a re-analysis of the deposited data

How the results depend on the processing

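The log2 changes of the 8 genes ranged, with each array left out in turn, from -0.13 to 0.43 for Gcg, -0.04 to 0.49 for Ppy, -0.41 to 0.19 for Pyy, -0.10 to 0.06 for Sst, -1.77 to -0.82 for Ghrl, 0.07 to 0.66 for Ttr, -0.28 to 0.45 for Hhex and -0.51 to 1.76 for Irx2, and their median from -0.10 to 0.31. Other reversals were Hhex with array weights (-0.46), Irx2 from linear means (-0.52), Pyy (0.04) and Sst (0.20) after 75th percentile scaling, Pyy (0.43) and Sst (0.24) with that scaling and fed replicate 2 left out, and Pyy (0.36) and Sst (0.02) with quantile normalization and that array left out. Scaling moved the median log2 change of all probe sets, -0.20 as deposited, to 0.01 (75th percentile) or -0.02 (quantile). The last 2 settings were chosen after seeing the data. With that array left out, 3 genes passed as higher after 75th percentile scaling, where the median was 0.55, and 1, Irx2, after quantile normalization. Ghrl was the 1 gene that passed as lower, with a pseudocount, among brighter probe sets, with robust variance, with array weights and without fasted replicate 3, and the cause was not tested.

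Over the whole table, 2616 probe sets were lower and 737 higher. The lower count was 1501 after quantile normalization, 1329 after 75th percentile scaling, 4209 with array weights, 1625 from linear means, 1111 and 1320 with fed replicate 2 left out and 75th percentile or quantile scaling, and 1448 to 5562 with single arrays left out. The higher count was 1275, 1430, 1302 and 269 under the first 4 of these, 419 with the higher floor, 379 among brighter probe sets, where fewer were tested, 1133 with fed replicate 2 left out and 75th percentile scaling, and 472 to 1536 with single arrays left out. The number of members lower was 0 to 1, and higher 0, with single arrays left out. Of the called genes outside the 8, Gipr, Gcgr, Ptprn, Cartpt and Krt19 kept their call with each array left out, and no direction of these genes turned.

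Same-numbered fasted and fed arrays did not deviate together (correlations -0.0823 to 0.0992), and the best match of a fasted array was not always its own number. Such correlations cannot show whether same-numbered isolates shared a day. The labels name no pairs, so the main fit used no block. With the replicate number as a block, 2046 probe sets were lower and 644 higher, and 0 of the 8 genes passed.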

Other observations

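Genes of other peptide hormones and neuropeptides were measured beside the islet hormones. Of 22 such genes 1 was lower and 1 higher in fasted isolates, beside 8.43% of all probe sets lower and 2.37% higher. The list median was 0.13, beside -0.19 over all genes. Cartpt, which encodes the CART peptide found in islet cells and nerves, measured 63.8, 115 and 131 in the fasted isolates, against 239, 240 and 184 in the fed isolates (log2 change -1.15, standard error 0.29, unadjusted p = 0.00681, adjusted p = 0.224 from limma), and every fasted array was below every fed array. Npy, neuropeptide Y, a relative of Ppy and Pyy, measured 473, 273 and 317 in the fasted isolates and 280, 140 and 142 in the fed isolates (log2 change 0.96, standard error 0.33, unadjusted p = 0.0271, adjusted p = 0.29 from limma). Its call was lost without fed replicate 2 or 3 and without fasted replicate 1 or 3, at log2 changes of 0.73 to 1.02.

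None of the 8 measured genes of prohormone processing passed the thresholds, with a list median of -0.13, and none of the 16 islet transcription factors did, with a median of -0.03. Of all probe sets 8.43% passed as lower and 2.37% as higher, and the median over all genes was -0.19. Among retinol and thyroid hormone carriers Stra6, the retinol transporter of the cell surface, passed as higher in fasted isolates, at 131, 109 and 25.6 in the fasted isolates, against 25.6, 22.8 and 22.9 in the fed isolates (log2 change 1.59, standard error 0.62, unadjusted p = 0.0413, adjusted p = 0.32 from limma). Fasted replicate 3 lay at the fed level, the call was lost without any other single array (log2 change 1.15 to 1.64), and the mean over all Stra6 probe sets changed by only 0.22. Krt19, a duct cell keratin, measured 88.9, 80.3 and 88 in the fasted isolates and 56.8, 46.4 and 55.6 in the fed isolates (log2 change 0.70, standard error 0.15, unadjusted p = 0.00275, adjusted p = 0.192 from limma), and was lowest on fed replicate 2.

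The genes that stood farthest above the next array on fed replicate 2 were listed after their values were seen, among brighter probe sets. Slc22a15 measured 285 there and 8.35 to 25.8 on the other arrays, and Higd1a 318 there and 26.2 to 63.8 elsewhere. Cd74, an antigen presentation gene, measured 103 there and 15.3 to 31.2 elsewhere, and Dcn, a stromal proteoglycan, 95.5 there and 9.31 to 26.8 elsewhere.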
